A study of Homo sapiens with 6 samples.

Results

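The insulin-like growth factor (IGF) system was followed here at the mRNA level through 9 genes, taken from the tables by their symbols: the ligands IGF1 and IGF2, the signalling receptor IGF1R, and the binding proteins IGFBP2 to IGFBP7. All 9 were found among the 25368 symbols of each of 2 expression tables. The tables come from 6 RNA-seq libraries of MRC5, a line of human embryonic lung fibroblasts that the study immortalised with hTERT, and each condition has 1 library. In the JUN overexpression table all 3 libraries are from cells infected with adenovirus, which carried an empty vector (control), FLAG-tagged wild-type JUN (JUN WT) or a JUN whose JNK phosphorylation sites were changed to alanine (JUN AA). There is no uninfected library in that table. In the JNKi table, MRC5 cells without treatment are compared with induced cancer-associated fibroblasts (iCAFs), made by 7 days in medium conditioned by the breast cancer line MDA-MB-231, and with iCAFs given 1 µM of the JNK inhibitor for 48 h (iCAFs+JNKi). The iCAFs received DMSO as vehicle. According to the study's methods the conditioned medium was collected without serum while MRC5 stocks were kept with serum. The MRC5 library is labelled as having no treatment, and no vehicle is named for it. The tumour-cell medium, a change in serum and the vehicle therefore cannot be told apart in comparisons with MRC5.

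IGF1 and IGF2 are secreted hormones that bind the receptor tyrosine kinase IGF1R and, through insulin receptor substrates, PI3K and AKT, promote growth and survival. In tissue fluid most IGF is held by binding proteins, which keep it from the receptor, carry it or release it when proteases cut them. Fibroblasts are a known source of several of these binding proteins, and some, such as IGFBP3 and IGFBP5, also bind matrix and act without IGF. IGFBP7 differs from the others in its low affinity for IGFs.

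Values are FPKM, fragments per kilobase of exon, scaled to the mapped fragments of the library. This unit is scaled by gene length, so levels can be set beside each other across genes as well as across the libraries of one table. A difference is given as log2(FPKM + 1) in one library minus the other, which makes the folds of weakly expressed genes look smaller, and 2-fold means a log2 difference of 1 or more in size. A gene is counted if its 3 libraries in a table average 1 FPKM or more, which 10311 genes of the JUN overexpression table and 11780 of the JNKi table did. With 1 library per condition, no difference has an error or a p-value, and the read number behind each value is unknown. For orientation, the control had 25.5 FPKM of JUN itself, JUN WT 4543 and JUN AA 291, and it was at 57.1, 55.3 and 21.1 FPKM in MRC5, iCAFs and iCAFs+JNKi. FPKM do not separate introduced from endogenous JUN. All 12 fibroblast markers examined, among them VIM and COL1A1, were at 1 FPKM or more in every library, and they summed to between 5341 FPKM in JUN AA and 12678 in iCAFs+JNKi. Of 10 epithelial, 8 endothelial and 9 leukocyte markers, at most 3, 1 and 2 reached 1 FPKM in a library, with sums of 20.2 to 57.3 FPKM for the epithelial and 33.5 to 86.4 FPKM for the leukocyte list. Epithelial CDH1, KRT5 and ESRP1, endothelial CDH5 and T cell CD3E were listed at 0 in all 6. Of the remaining markers of these other cell types, KRT18 reached 36.7 FPKM in the control and CD68 85.7 FPKM in JUN WT, and TEK was at 10.4 FPKM in iCAFs+JNKi against 3.77 in iCAFs. Their part in the results below was not tested.

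The promoters of IGFBP3, IGFBP4 and IGFBP5 are shown because these binding proteins were lower than control in both JUN libraries and at least 2-fold higher in iCAFs than in MRC5, and because JUN is a subunit of AP-1, a factor that binds a heptamer searched here as TGANTCA with any central base. Each sequence holds the 250 bases before the gene's start in RefSeq, read along the gene's own strand and matched here to a single place in GRCh37. Capitals mark a GC box (GGGCGG, bound by SP1) or a TATA box (TATAAA) on either strand, with none overlapping. The IGFBP3 window lies at chr7:45960872-45961121 on the minus strand, the IGFBP4 window at chr17:38599452-38599701 on the plus strand and the IGFBP5 window at chr2:217560273-217560522 on the minus strand. The GENCODE annotation starts IGFBP3 further upstream, at 45961473, so by that annotation the IGFBP3 window lies within the gene.
IGFBP3: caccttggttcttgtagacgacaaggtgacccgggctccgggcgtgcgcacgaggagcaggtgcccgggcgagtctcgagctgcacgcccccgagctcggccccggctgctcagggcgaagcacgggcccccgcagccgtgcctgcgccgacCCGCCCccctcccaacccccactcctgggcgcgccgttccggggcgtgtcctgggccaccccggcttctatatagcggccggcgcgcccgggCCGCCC
IGFBP4: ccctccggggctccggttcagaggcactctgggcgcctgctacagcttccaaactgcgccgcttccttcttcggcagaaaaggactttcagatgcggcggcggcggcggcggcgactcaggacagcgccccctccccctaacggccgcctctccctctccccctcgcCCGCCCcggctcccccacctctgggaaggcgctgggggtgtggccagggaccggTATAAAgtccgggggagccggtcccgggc
IGFBP5: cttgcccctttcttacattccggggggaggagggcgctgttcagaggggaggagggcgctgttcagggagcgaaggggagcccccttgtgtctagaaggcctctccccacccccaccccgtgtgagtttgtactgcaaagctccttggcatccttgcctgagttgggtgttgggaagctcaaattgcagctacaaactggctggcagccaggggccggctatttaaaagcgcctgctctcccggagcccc
No AP-1 heptamer was in these 3 windows, nor in any of the 10 windows listed for 7 of the 9 members (IGF2 and IGFBP7 have no entry). The heptamer was in 6.57% of all 35116 promoter windows of the same length. At that share, or a lower one, 10 windows will often hold none. The IGFBP3 promoter had 2 GC boxes and the IGFBP4 promoter 1, a motif held by 42.6% of all windows. The capital TATA box of IGFBP4 is a motif in 10.7% of all windows. IGFBP5 had no match to either motif. The cAMP response element TGACGTCA, also known as a site of JUN dimers, was in none of the 10 windows and in 1.65% of all windows, and the FOXO motif GTAAACA was in the windows of IGF1 and IGFBP6 alone, against 2.98% of all windows. The GC content was 76.0% for IGFBP3, 71.6% for IGFBP4 and 61.2% for IGFBP5. The match is by letters alone and covers no distal enhancer.

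On GRCh37, the assembly also called hg19, the binding protein genes IGFBP2 and IGFBP5 lie next to each other on chromosome 2. IGFBP2 runs on the plus strand from 217497551 to 217529159 and IGFBP5 on the minus strand from 217536828 to 217560272, so that their 3′ ends face each other across 7668 bases. IGFBP3 is on chromosome 7 from 45951844 to 45961473, IGFBP4 on chromosome 17 from 38599702 to 38613977, IGFBP6 on chromosome 12 from 53491220 to 53496129 and IGFBP7 on chromosome 4 from 57896939 to 57976551. IGF1 lies on chromosome 12 from 102789652 to 102875522, IGF2 on chromosome 11 from 2150342 to 2179621 and IGF1R on chromosome 15 from 99191768 to 99507759. In the GENCODE annotation IGF2 shares exon bases with INS-IGF2 and IGF2-AS, IGFBP7 with POLR2B and IGFBP7-AS1, IGFBP5 with DIRC3-AS1 and IGF1 with HELLPAR, and the strand setting of the authors' counting is not given in the sources used here. INS-IGF2 was listed at 0 in all 6 libraries.

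The ligands were scarce in these fibroblasts, and the receptor was at a low level. IGF1 was listed at 0 in all 3 libraries of the JUN overexpression table, and MRC5 had 0.040 FPKM, iCAFs 0.021 and iCAFs+JNKi 0.046, so no library held an IGF1 level on which a difference could rest. For IGF2 the control had 0.57 FPKM, JUN WT 0.32 and JUN AA 0.15, under the minimum mean of 1 FPKM. In the JNKi table MRC5 had 0.52 FPKM of IGF2, iCAFs 1.64 and iCAFs+JNKi 2.22, and it passed the minimum only through the latter 2 libraries. The control had 2.34 FPKM of IGF1R, JUN WT 1.26 and JUN AA 1.22. These are bulk libraries, in which fewer cells of a type and less RNA per cell cannot be told apart. Both JUN libraries thus lay below the control and close to each other, with log2 differences of -0.56 and -0.59 from control. In the other experiment MRC5 had 4.70 FPKM of IGF1R, iCAFs 5.15 and iCAFs+JNKi 8.17. The inhibitor library was the high one here, by 0.58 on the log2 scale over iCAFs, and 5.28% of all genes differed at least as far in that direction.

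Binding protein mRNA was abundant by comparison, and its first, second and last places were the same in all libraries. IGFBP4, a binding protein that is cut by the protease PAPPA, came first in each of the 6, followed by IGFBP7. Among all genes by level, IGFBP4 ranked 98 for MRC5, 17 for iCAFs and 9 for iCAFs+JNKi. IGFBP2, a binding protein that can also bind integrins, was the lowest of the 6 binding proteins everywhere, at 1.17 to 9.16 FPKM. Between them, the control, JUN WT and JUN AA had IGFBP6 above IGFBP5 and IGFBP3, while iCAFs+JNKi had IGFBP3 first and IGFBP6 last of these. The plot of levels shows this order.

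**Figure D1:**
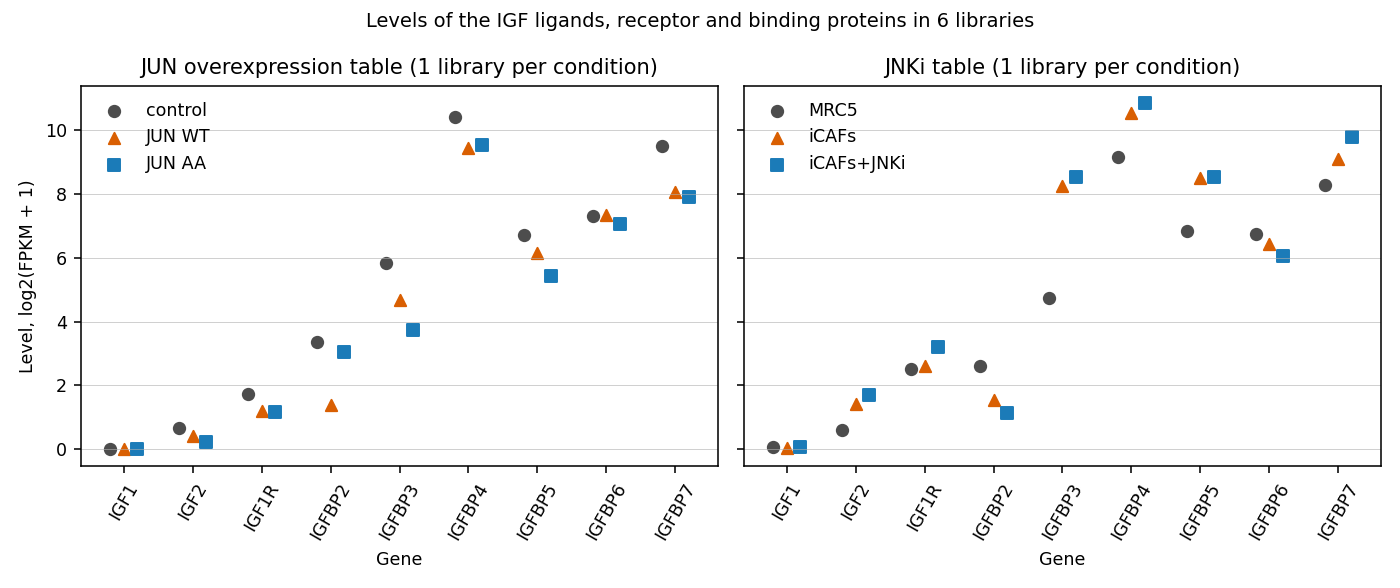
Levels of the 9 genes as log2(FPKM + 1) on the vertical axis, with 1 point per library and the JUN overexpression table on the left and the JNKi table on the right. IGFBP4 and IGFBP7 lie highest and IGF1 lowest in both tables, IGFBP3 spans from 25.6 to 374 FPKM in the JNKi table, and there is no error bar because each condition has 1 library.

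In JUN WT against control, the question was what a high level of phosphorylatable JUN does to these fibroblasts. Of the 7 members counted, IGFBP2, IGFBP3 and IGFBP7 were at least 2-fold lower in JUN WT and 0 were at least 2-fold higher, where 3.39% of all genes were that far lower and 6.92% that far higher (522 and 436 genes once differences were centred on the median gene, in place of 350 and 714). Centred in this way, IGFBP4 also passed 2-fold, at -1.11, which made 4 members lower. The median difference of the 7 was -0.96, and that of all 10311 genes was 0.15. IGFBP2 differed most, at 9.16 FPKM in the control and 1.60 in JUN WT, a log2 difference of -1.97 that 0.37% of all genes matched or passed. IGFBP7 was at 720 FPKM in the control and 269 in JUN WT, and IGFBP3, the main carrier of IGF in blood, was at 56.3 and 24.8 FPKM. Both were lower in JUN WT by more than 2 times in FPKM. IGFBP4 was at 1359 and 698 FPKM, a difference of -0.96 that stops just short of the limit, and IGFBP5, a matrix-binding member, was at 104 and 69.3 FPKM, a difference of -0.58. IGFBP6, which prefers IGF2 over IGF1, differed least, at 157 FPKM in the control and 160.0 in JUN WT. Its sign depended on the scaling, with -0.12 relative to the median gene and 0.42 once trends with transcript length and GC content were removed.

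In JUN AA against control, IGFBP3, IGFBP5 and IGFBP7 were at least 2-fold lower and 0 members were at least 2-fold higher, against 3.77% and 5.29% of all genes (957 and 338 genes once each library was rescaled to the same FPKM sum, in place of 389 and 545). With that rescaling 4 members were lower, IGFBP4 included at -1.18, and without length and GC trends 2 were, since IGFBP5 was at -0.99. All 7 members counted were below the control, with a median of -0.87 beside -0.015 for all genes. Both comparisons use the same control library, so their shared direction is not independent. IGFBP3 was at 12.4 FPKM in JUN AA, a difference of -2.09, which 0.36% of all genes reached. IGFBP5 was at 41.9 FPKM and IGFBP7 at 238 FPKM, with differences of -1.29 and -1.59. IGFBP4 was at 743 FPKM and IGFBP6 at 132 FPKM. IGFBP2 stood apart from JUN WT, since it was at 7.20 FPKM in JUN AA, only 0.31 below the control on the log2 scale.

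Set directly against each other, JUN WT and JUN AA lay furthest apart in IGFBP2, IGFBP3 and IGFBP5. IGFBP2 was lower in JUN WT by 1.66 on the log2 scale and was the only member past 2-fold, where 5.61% of all genes were that far lower and 6.65% that far higher (364 and 1770 genes once rescaled and 822 and 411 once centred, in place of 578 and 686). IGFBP3 was at 24.8 FPKM in JUN WT and 12.4 in JUN AA, a difference of 0.95 on the log2 scale, and IGFBP5 differed by 0.71 in the same direction. The size of these 2 differences depended on the scaling, with 1.26 and 1.01 once each library was rescaled to the same sum and 0.41 and 0.24 without the length and GC trends. IGF1R, IGFBP4, IGFBP6 and IGFBP7 differed by 0.28 or less, though IGFBP6 reached 0.84 without these trends and the sign for IGF1R, IGFBP4 and IGFBP7 changed with the scaling or the removal of trends. JUN mRNA was far higher in JUN WT than in JUN AA, so the phosphorylation sites and the amount of JUN cannot be told apart.

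**Figure D2:**
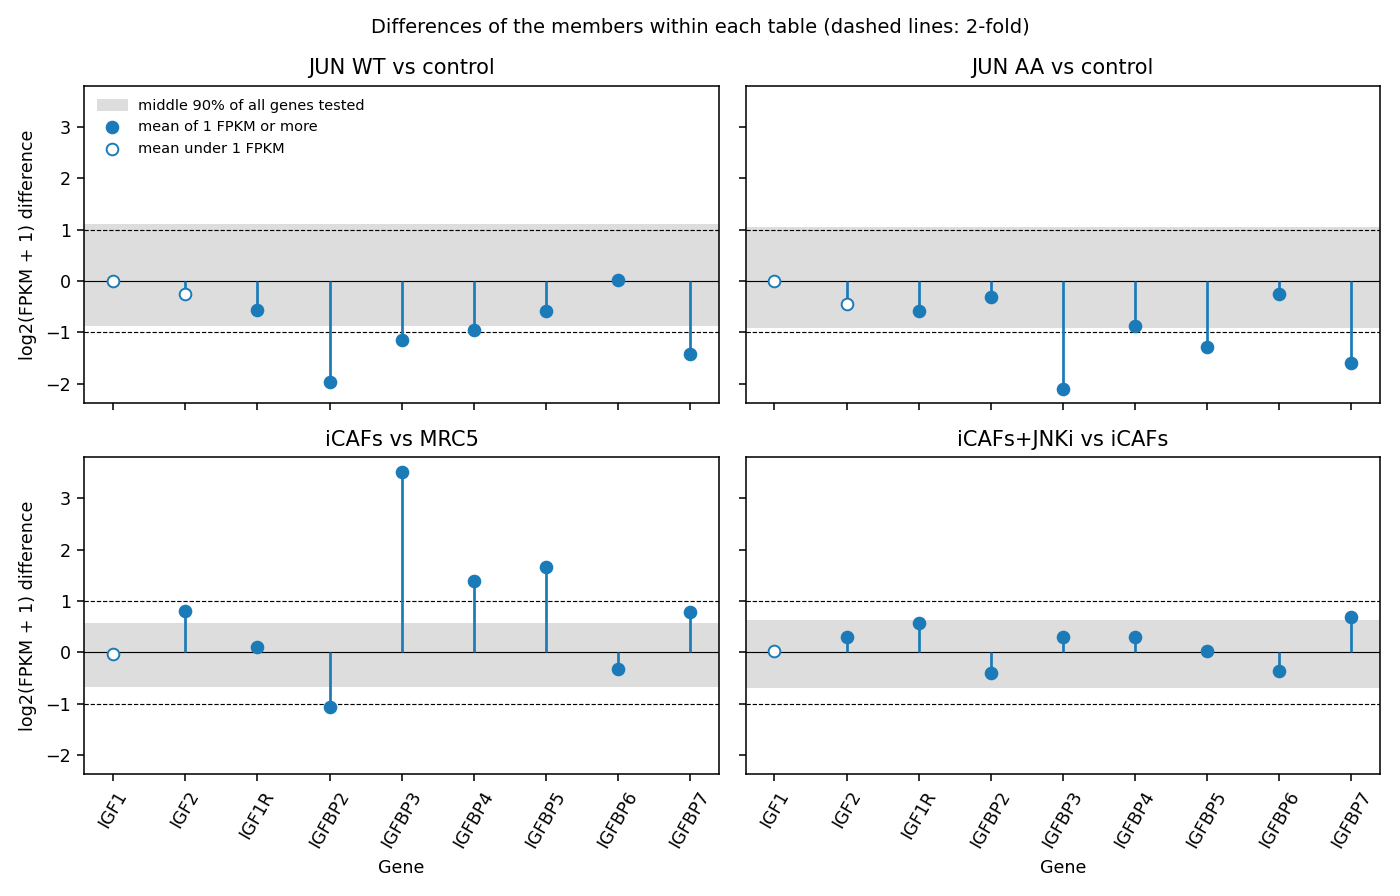
Differences in log2(FPKM + 1) of the 9 genes in 4 comparisons, with filled points for genes that average 1 FPKM or more, open points for genes below it, dashed lines at 2-fold and a grey band for the middle 90% of all genes counted. IGFBP3 and IGFBP7 lie under the band in both JUN comparisons, while IGFBP3, IGFBP4, IGFBP5, IGFBP7 and IGF2 lie above it and IGFBP2 below it in iCAFs against MRC5.

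The comparison of iCAFs with MRC5 covers the tumour-cell medium together with any change in serum and the vehicle, and here most binding proteins were higher. Of the 8 members counted, IGFBP3, IGFBP4 and IGFBP5 were at least 2-fold higher, where 1.94% of all genes were, and IGFBP2 alone was at least 2-fold lower, where 1.71% of all genes were. The call for IGFBP2 ended without length and GC trends, at -0.97, and with a minimum of 5 FPKM, which it did not pass. With rescaled FPKM or a pseudocount of 0.1, 4 members were at least 2-fold higher, IGF2 being the one added. IGF2 passed the minimum only through its iCAFs and iCAFs+JNKi levels. The median of the 8 was 0.79 and that of all 11780 genes was -0.061. IGFBP3 was at 25.6 FPKM in MRC5 and 304 in iCAFs, or 11.9 times as high, and 16 other genes of the table differed at least as far upward. IGFBP5 was at 113 and 360 FPKM and IGFBP4 at 573 and 1505 FPKM, with log2 differences of 1.66 and 1.39. IGFBP7 was at 313 and 543 FPKM, 1.73 times as high in iCAFs. In the opposite direction, IGFBP2 was at 5.03 FPKM in MRC5 and 1.88 in iCAFs, although its neighbour on chromosome 2, IGFBP5, was higher. IGFBP6 was at 106 and 84.5 FPKM, a difference of -0.32.

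With JNKi added to iCAFs, none of the 8 members counted passed 2-fold in either direction, where 2.25% of all genes were that far higher and 1.97% that far lower (323 and 182 genes once centred, in place of 265 and 232), and the median was 0.29 beside -0.099 for all genes. IGFBP3 was at 374 FPKM in iCAFs+JNKi, IGFBP4 at 1847 and IGFBP5 at 366, so each was at or above its iCAF level. IGFBP5 was the steadiest, with a difference of 0.024. IGFBP7 differed most, at 878 FPKM in iCAFs+JNKi against 543 in iCAFs, a difference of 0.69 that 4.19% of all genes matched. IGFBP2 and IGFBP6, the members already lower in iCAFs, were lower again, at 1.17 and 65.3 FPKM. Against untreated MRC5, iCAFs+JNKi had 5 members at least 2-fold higher, namely IGF2, IGFBP3, IGFBP4, IGFBP5 and IGFBP7, and IGFBP2 at least 2-fold lower, where 3.28% and 3.53% of all genes were that far higher and lower (581 and 398 genes once rescaled and 517 and 267 once centred, in place of 386 and 416). IGF2 was counted there only because its iCAFs and iCAFs+JNKi levels brought its mean to the minimum. That comparison shares its libraries with the preceding ones. IGFBP3 there was 14.6 times and IGF2 4.31 times as high in FPKM, with IGF2 remaining at a low level.

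The sum of the 6 binding proteins went in opposite directions in the 2 tables. The control had 2405 FPKM, JUN WT 1222 and JUN AA 1174, which is 0.49%, 0.25% and 0.19% of all FPKM in those libraries. In the JNKi table MRC5 had 1136 FPKM, iCAFs 2799 and iCAFs+JNKi 3532, or 0.28%, 0.71% and 0.98% of all FPKM. The control and MRC5 are in separately normalised tables, so their sums are not compared.

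The composition of this sum does not depend on how a library was scaled. IGFBP4 held 56.5%, 57.1% and 63.3% of it in control, JUN WT and JUN AA, and 50.4%, 53.8% and 52.3% in MRC5, iCAFs and iCAFs+JNKi. The share of IGFBP3 was 2.26% for MRC5, 10.9% for iCAFs and 10.6% for iCAFs+JNKi, and the share of IGFBP6 was 9.33%, 3.02% and 1.85%. In the JUN table the share of IGFBP7 was 29.9% for the control, 22.0% for JUN WT and 20.3% for JUN AA, while that of IGFBP6 was 6.53%, 13.1% and 11.2%. The ratio of IGFBP3 to IGFBP6 was 0.36 for the control, 0.16 for JUN WT and 0.094 for JUN AA. It was 0.24 for MRC5, 3.60 for iCAFs and 5.72 for iCAFs+JNKi, so IGFBP3 was the more abundant of the pair in the latter 2 libraries alone.

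**Figure D3:**
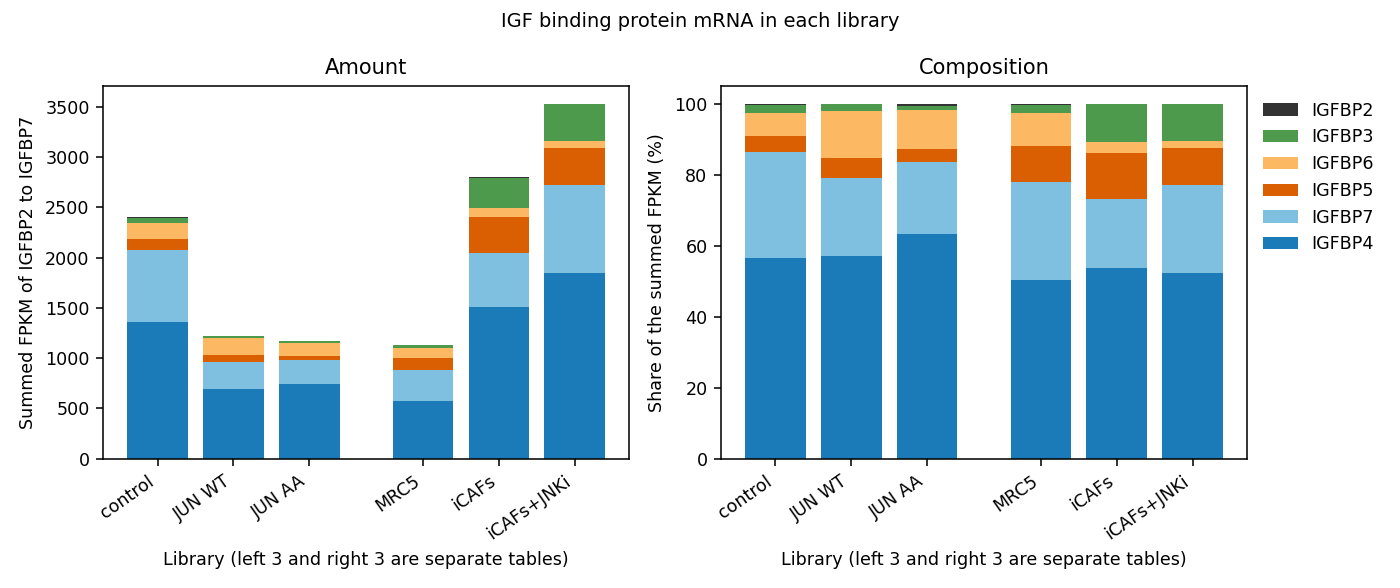
Summed FPKM of IGFBP2 to IGFBP7 in each library on the left and the share of each binding protein in that sum, in percent, on the right, with bars from 0 and 1 library per bar. IGFBP4 is the largest part of every bar, and the IGFBP3 part is 2.26% in MRC5 and 10.9% in iCAFs.

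Other genes of the IGF pathway were taken from 5 lists of receptors, proteases, mRNA-binding proteins, related secreted proteins and signal relays. Their counts stand against the shares and medians of all genes given above for each comparison. Among the receptors and carriers outside the 9 members, only IGF2R passed the minimum. IGF2R, which takes IGF2 into the cell for breakdown, was at 36.8 FPKM for the control, 32.5 for JUN WT and 23.0 for JUN AA, and at 72.2, 73.9 and 59.0 FPKM in MRC5, iCAFs and iCAFs+JNKi. It was thus well above IGF1R in every library and did not differ 2-fold anywhere.

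The proteases that can cut IGFBPs, with the stanniocalcins that inhibit PAPPA, had their largest median differences in iCAFs against MRC5 and in JUN WT against JUN AA. In iCAFs against MRC5, 8 of its 14 counted genes lay 2-fold or more above MRC5 and 0 that far below, with a median of 1.05, where 1.94% of all genes were that far higher and 1.71% lower and the median of all was -0.061. The stromelysin MMP3 was at 33.7 and 290 FPKM, urokinase (PLAU) at 339 and 1563, STC1 at 95.4 and 374 and the collagenase MMP1 at 344 and 1042. PAPPA itself, outside the 4 largest and added after its value was seen, was at 25.9 FPKM in MRC5 and 55.8 in iCAFs, next to the higher level of its substrate IGFBP4. In iCAFs+JNKi against iCAFs MMP1 was the 1 gene of the list past 2-fold, at 455 FPKM, and the median was -0.10 beside -0.099 for all genes. In JUN WT against control, 4 genes lay 2-fold or more above the control and 2 below, against 6.92% and 3.39% of all genes, with a median of 0.14 beside 0.15. These were MMP1 (31.1 to 414 FPKM), MMP3 (3.61 to 43.4), STC2 (10.1 to 43.9) and STC1 (to 56.9) upward and PLAU (350 to 150) and MMP14 (677 to 319) downward. In JUN AA, 1 gene was higher, MMP1 at 155 FPKM, and 5 were lower, with PLAU at 125, MMP14 at 256, CTSD at 170 and HTRA1 at 33.5 FPKM among them, against 5.29% and 3.77% of all genes, and the median was -0.44 beside -0.015. JUN WT was 2-fold or more above JUN AA for 8 of the 14 and that far below for 0, with a median of 1.16 beside 0.18 for all genes. Of all genes 6.65% were that far higher and 5.61% lower, or 686 and 578 genes, which became 1770 and 364 once rescaled.

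Among the IGFBP-related secreted proteins, which share an IGFBP-like domain, connective tissue growth factor (CTGF) differed in the same directions as IGFBP3, IGFBP4 and IGFBP5. The control had 93.3 FPKM of it, JUN WT 34.8 and JUN AA 34.3, while MRC5 had 116, iCAFs 298 and iCAFs+JNKi 533. In JUN WT against control CTGF and WISP2 were at least 2-fold lower of 5 counted, and in JUN AA CTGF was, but WISP2 passed the minimum only through its 2.35 FPKM in the control. In iCAFs against MRC5, of 6 counted, ESM1 and CTGF were higher and NOV lower, at 14.0 and 5.18 FPKM, and ESM1 passed the minimum only through its 2.31 FPKM in iCAFs. WISP1 was at 1.35 FPKM in iCAFs and 9.28 in iCAFs+JNKi.

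The mRNA-binding proteins that act on IGF2 transcripts, together with LIN28 and the HMGA proteins, had 5 counted genes. HMGA2, a chromatin protein of growing tissue, was at 13.9 FPKM in the control and 58.8 in JUN WT, the 1 gene of the list past 2-fold in that comparison. It was also the 1 gene past 2-fold in JUN WT against JUN AA, at 58.8 and 21.8 FPKM. None of the 5 was past it in JUN AA against control, in iCAFs against MRC5 or in iCAFs+JNKi against iCAFs. The list as a whole was nonetheless lower with the inhibitor, with a median of -0.76 in iCAFs+JNKi against iCAFs beside -0.099 for all genes. In iCAFs against MRC5 its median was -0.17 beside -0.061. In iCAFs+JNKi against MRC5, HMGA1 (630 to 254 FPKM) and IGF2BP3 (38.5 to 15.2 FPKM) were at least 2-fold lower.

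The signal relay downstream of the receptor differed little. Its median was -0.077 for JUN WT and 0.0067 for JUN AA against control over 39 counted genes, and over 43 genes it was -0.11 for iCAFs against MRC5 and -0.14 for iCAFs+JNKi against iCAFs. In JUN WT 4 genes that restrain AKT, TOR signalling or cap-dependent translation were at least 2-fold lower. TRIB3, a pseudokinase that binds AKT, was at 70.9 FPKM in the control and 22.8 in JUN WT. The translation repressor EIF4EBP1 was at 232 and 91.3 FPKM, and the TOR inhibitors DDIT4 and SESN2 were at 61.9 and 26.5 and at 59.6 and 25.7 FPKM. RHEB, the GTPase that activates TOR, was the 1 gene at least 2-fold higher, at 15.8 and 36.3 FPKM. In JUN AA SOCS1, and in iCAFs against MRC5 SOCS3, both feedback inhibitors of cytokine signalling, were the 1 gene past 2-fold. In iCAFs+JNKi against iCAFs 0 genes were.

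**Figure D4:**
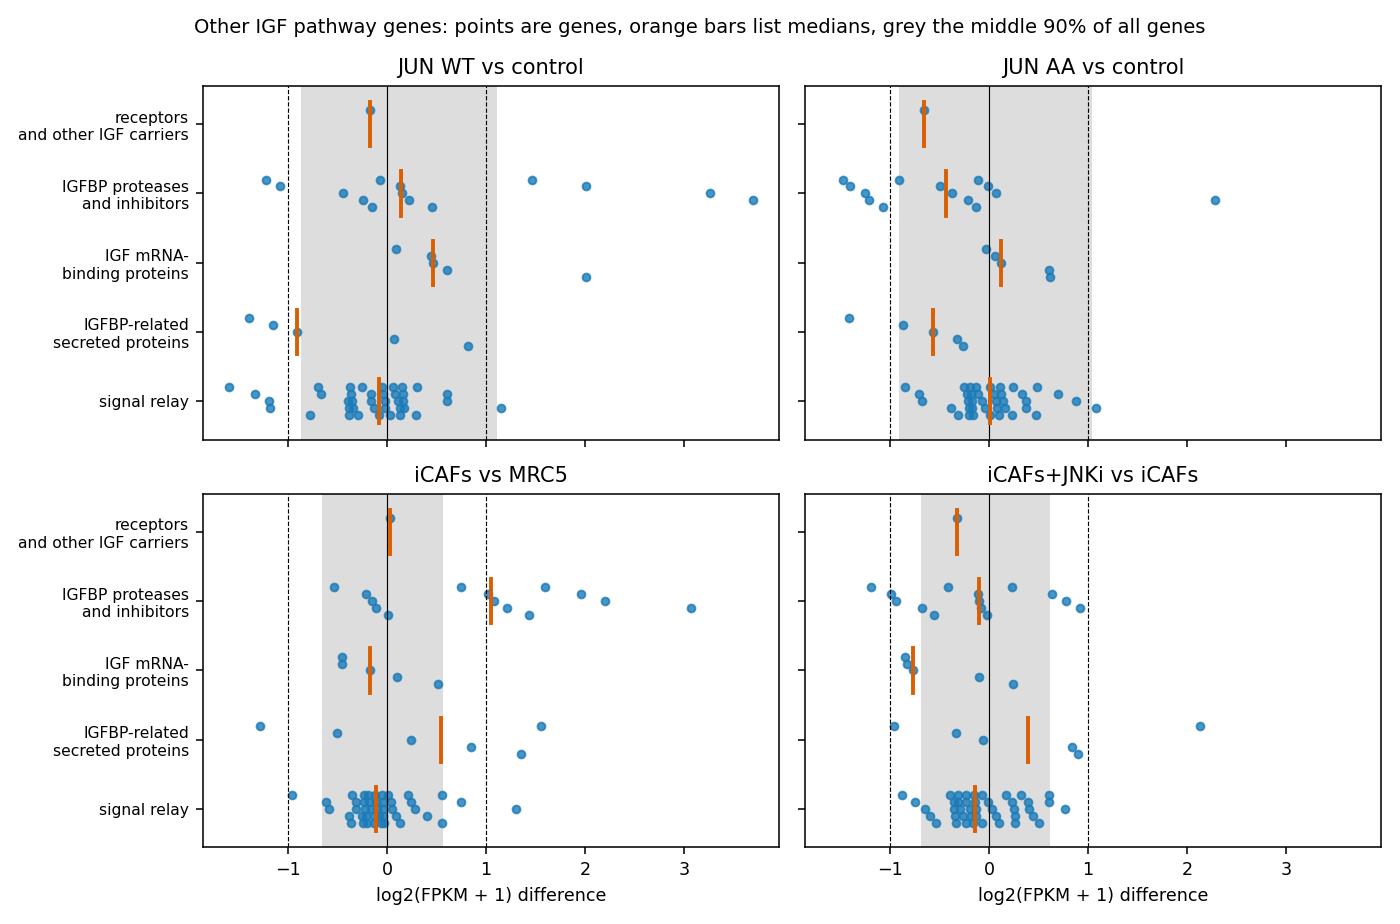
Differences in log2(FPKM + 1) of the other IGF pathway genes counted in 4 comparisons, with 1 point per gene, an orange bar at the median of each list, dashed lines at 2-fold and a grey band for the middle 90% of all genes. The protease list reaches a median of 1.05 in iCAFs against MRC5, and the signal relay has medians between -0.14 and 0.0067.

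Genes with the most similar pattern were found by the Euclidean distance over 4 log2 differences, those of JUN WT and JUN AA from control, of iCAFs from MRC5 and of iCAFs+JNKi from iCAFs, across the 6 libraries. For IGFBP4 they were MSC, CYP2S1 and WNT5A, at distances of 0.15 to 0.39. For IGFBP5 they were WNT5A, PTGES and SGK1, at 0.54 to 0.59, and for IGFBP7 they were NID1, IL4R and MRC2, at 0.51 to 0.55. WNT5A, a secreted WNT ligand, was near both IGFBP4 and IGFBP5, with differences of -0.78, -1.04, 1.64 and 0.46 in the order given. IGFBP3 had no close counterpart, since the nearest gene, TMEM132A, was 1.64 away and ID1 and TGM2 followed at 1.74 and 1.77. The distance is not scaled by the size of the differences. It is thus large for IGFBP3, which was 3.52 higher in iCAFs than in MRC5, where few genes lie. Small distances, as for IGFBP6, go with small differences, where most genes lie. IGFBP2 was nearest to AHNAK, ECI1 and CUEDC1 at 0.75 to 0.81, and IGFBP6 to PCNXL2, PCNXL4 and RRP1 at 0.059 to 0.15. IGF1R was nearest to ATG13, B3GNT9 and USP46, at 0.18 to 0.20.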

How the data were processed

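RNA-seq was done on 6 libraries of MRC5 cells, 1 per condition, grouped by the treatment in the sample labels. The authors mapped reads to hg19 with HISAT2 2.1.0 and deposited FPKM values per gene from StringTie 2.1.1, in 2 tables that were normalised separately. Annotation, strand setting and read number are not given in the sources used here. FPKM scales each gene by its share of mapped fragments, so a few very abundant genes shift all others, and shared exons depend on how reads were divided.

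Comparisons were made within a table as log2(FPKM + 1) differences over genes that average 1 FPKM or more, in Python 3.11.15 (pandas 2.3.3, numpy 2.4.6, scipy 1.17.1). Of rows with the same symbol, the one with the highest mean was kept. With 1 library per condition no test was made, and depth and precision of single values are unknown. The computation was tested on simulated data.

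The 9 members and the lists were chosen with earlier results of these data known. All members are named, list genes at 2-fold or more (at most the 4 largest per list and comparison), and the 3 nearest genes by pattern. Other names are marked or belong to a count of 5 or fewer. GENCODE on GRCh37 gave positions, transcript lengths and GC content, and RefSeq the promoters. The alternatives tried were FPKM brought to a sum of 1000000 per library, 0.1 as pseudocount, centring on the median gene, no minimum or 5 FPKM, removal of trends with length and GC content (medians in 20 bins of each), and summed rows. A value counted as moved at over 0.25 (log2), 10 percentage points or 1.5 times. Figures were drawn with matplotlib 3.10.9.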

Additional observations from a re-analysis of the deposited data

How the results depend on the processing

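As each condition has 1 library, no paired analysis was possible and no library could be left out. The 17 member differences of 2-fold or more in the 6 comparisons stayed at 2-fold or more with a pseudocount of 0.1, with rescaled FPKM, with centring and with summed rows, and 15 of 17 did with length and GC trends removed. The exceptions were IGFBP5 for JUN AA against control, at -0.99, and IGFBP2 in iCAFs against MRC5, at -0.97, which left 0 members at least 2-fold lower there.

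Over all genes, the difference in JUN WT from control had a Spearman's rho of -0.39 with transcript GC content, across 9393 genes that are not independent replicates. Length and GC trends were removed for each comparison on its own. In JUN WT against control this put IGFBP4 at -0.65 in place of -0.96 and IGFBP3 at -1.45 in place of -1.15. In JUN WT against JUN AA the rho was -0.10 with GC content and 0.12 with length. Without those trends IGFBP6 there was at 0.84 in place of 0.28, and IGFBP2 at -1.14 in place of -1.66. With rescaled FPKM, the median of the members was -1.18 for JUN AA against control, 0.47 for JUN WT against JUN AA and 1.64 for iCAFs+JNKi against MRC5, and 2 members, IGFBP3 and IGFBP5, were at least 2-fold higher in JUN WT than in JUN AA. The median of all genes there was -0.29 for JUN AA against control. It was 0.47 for JUN WT against JUN AA, the same as for the members to 2 decimals.

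With a pseudocount of 0.1 the median of the members was 1.09 for iCAFs against MRC5 and 1.59 for iCAFs+JNKi against MRC5. Without a minimum level, which adds IGF1 and IGF2, it was -0.58 for JUN WT and -0.59 for JUN AA against control. With a minimum of 5 FPKM, which removes IGFBP2 and IGF2 from the JNKi table, 0 members were at least 2-fold lower in iCAFs or in iCAFs+JNKi against MRC5, and the medians were 1.09 and 1.59. With IGFBP7 left out, the share of IGFBP4 was 80.6% for the control, 73.2% for JUN WT, 79.4% for JUN AA, 69.7% for MRC5, 66.7% for iCAFs and 69.6% for iCAFs+JNKi. The unknown read number limits the weakly expressed members most. IGF1 and IGF2 were at 2.22 FPKM or less in every library. IGFBP2 was at 1.17 FPKM in iCAFs+JNKi, 1.60 in JUN WT and 1.88 in iCAFs, and each of its 2-fold differences rests on such a level. IGF1R was at 1.26 FPKM in JUN WT and 1.22 in JUN AA.

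The number of all genes at 2-fold, which the members' counts are read against, also depended on the setting. In the order higher and lower, JUN WT against control had 714 and 350 genes as reported. It had 1229 and 527 with pseudocount 0.1, 436 and 522 centred, 458 and 258 over 5 FPKM and 344 and 328 without trends. For JUN AA against control the 545 and 389 genes became 802 and 629, 290 and 250 without the trends, and 338 and 957 with rescaling. JUN WT against JUN AA, at 686 and 578, had 1151 and 735 with the smaller pseudocount, 1770 and 364 rescaled, 411 and 822 centred, 438 and 459 over 5 FPKM and 362 and 444 without trends. For iCAFs against MRC5 the 228 and 202 genes became 318 and 356 with the smaller pseudocount and 167 and 128 over 5 FPKM. The 265 and 232 genes of iCAFs+JNKi against iCAFs became 383 and 386, 169 and 147 in these settings, 411 and 244 rescaled, 323 and 182 centred and 289 and 145 without trends. Against MRC5 the 386 and 416 genes of iCAFs+JNKi became 508 and 706, 266 and 263, 581 and 398, 517 and 267, and 458 and 215 in the same order. The cause was not tested.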
